A study of Mus musculus with 6 samples.

Results

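Chemokine transcripts were described in 6 libraries of mouse cells labelled ADSCs, which usually stands for stem or stromal cells of adipose tissue. In 3 libraries the cells had a scrambled treatment, described in the series' design as scrambled ADSCs, and in 3 they had an Ifit1 knockdown, described there as sh-Ifit1. All 6 are labelled WT, and batches 1, 2 and 3 each hold 1 library of either group. No source used here gives the age, tissue depot, passage, any cytokine treatment or the way the hairpin was delivered. Nor is it stated that the libraries of a group are separate cultures or animals, so the p-values reflect the spread of these libraries, which may be technical. The 10 genes chosen by name are chemokines known from stromal cells: Cxcl10, Ccl5, Ccl2, Ccl7, Cxcl1, Cxcl5, Cxcl12, Cxcl16, Cx3cl1 and Ccl20. Of these, 9 have a row among the 19877 genes of the deposited table, 8 were abundant enough to test, Cxcl5 was below the filter, and Ccl20, the ligand of CCR6, has no row and was not analysed here. Levels are in FPKM, a fragment count scaled by gene length and by library depth, so they can be compared between genes per length as far as that length holds. A gene was tested where 3 or more of the 6 libraries reached an FPKM of 1. Values of a group are given in the order of batches 1, 2 and 3, and a library is called by its batch number.

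Chemokines are small secreted proteins that guide leukocytes and progenitor cells through G protein-coupled receptors, and they are held on tissue surfaces by heparan sulfate. They are classed by the spacing of their first cysteines into the CC, CXC and CX3C families. In stromal cells, interferon and NF-kappaB signalling are the best known inducers of their transcription, while Cxcl12 is made constitutively and keeps progenitor cells in their niche. IFIT1, the knocked-down protein, is itself induced by interferon and binds foreign RNA ends.

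The 250 bases before the RefSeq start site are shown for Cxcl10, which fell in knockdown, and for Cxcl1, which lies on the same chromosome and was not called. Entries were matched for 5 of the 10 genes (Cxcl10, Cxcl1, Cxcl12, Cx3cl1 and Ccl20; RefSeq, GRCm38.p6). Capitals mark matches, on either strand, to one of 2 motifs: GAAA, any 2 bases and GAAA again, the core of the interferon-stimulated response element, or GGGA, any 4 bases and CC, a form of the kappaB element. The Cxcl10 sequence is chr5:92348890-92349139, minus strand, and the Cxcl1 sequence is chr5:90890995-90891244, plus strand, each written 5′ to 3′ along its gene.
Cxcl10: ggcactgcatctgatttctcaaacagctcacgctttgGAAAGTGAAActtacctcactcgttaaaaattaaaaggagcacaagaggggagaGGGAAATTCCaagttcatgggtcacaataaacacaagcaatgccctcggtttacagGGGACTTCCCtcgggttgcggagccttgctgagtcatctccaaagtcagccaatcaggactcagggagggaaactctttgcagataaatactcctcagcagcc
Cxcl1: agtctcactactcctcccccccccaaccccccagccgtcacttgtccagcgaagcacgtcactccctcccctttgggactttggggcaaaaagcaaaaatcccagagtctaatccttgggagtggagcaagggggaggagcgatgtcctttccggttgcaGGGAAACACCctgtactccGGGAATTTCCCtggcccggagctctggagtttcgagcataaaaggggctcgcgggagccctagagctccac
The first capitals of Cxcl10, GAAAGTGAAA beginning 213 bases before the start, match the interferon motif. Its kappaB matches begin 159 and 103 bases before the start, and the nearer one, GGGACTTCCC, matches on both strands. In Cxcl1 the kappaB motif was matched at GGGAAACACC, 90 bases before the start, and by GGGAATTTCC and GGAATTTCCC, which overlap and begin 71 and 70 bases before it. No interferon match lay in the Cxcl1 window. Neither motif was found in the window of Cxcl12, which was not called, or of Cx3cl1, which was called lower in knockdown. The Ccl20 window held 1 kappaB match. These calls, and that of Cxcl1, are from the fit without batch. With batch as a block Cxcl1 was called higher and Cxcl12 lower (limma adjusted p = 0.0181 and 0.0012). The Cx3cl1 window, 94771930 to 94772179 on chromosome 8, runs past the GENCODE M21 start of the gene at 94772009. Whether the motifs bear on the changes was not tested. Over all 32851 promoter windows of this length, 2.98% held the interferon motif and 17.6% the kappaB motif. A match describes letters in a window and does not show binding.

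Between 32.2 and 40.6 M fragments per library were recovered from the steps of the FPKM values, and Ifit1 itself was lower in every knockdown library (1.48 to 1.76 FPKM) than in every scrambled library (3.75 to 4.97 FPKM). Stromal markers differed widely in level. Col1a1 averaged 1220 FPKM in scrambled and 676 FPKM in knockdown libraries, and Col1a2 averaged 1060 and 622 FPKM. Pdgfra averaged only 1.86 and 1.09 FPKM and Eng 2.06 and 1.21 FPKM, with Pdgfrb, Thy1, Ly6a, Cd44 and Vcam1 in between. The summed level of 10 stromal markers, mostly Col1a1 and Col1a2, ran from 2394 to 2730 FPKM in scrambled and from 1367 to 1685 FPKM in knockdown libraries. Of the 9 tested, 7 were lower and 1, Cd44 (log2 fold change 0.50), was higher. Over all tested genes 31.1% were lower and 19.8% higher. Nt5e, which encodes the stromal surface marker CD73, stood at 0.234 and 0.206 FPKM on average. Of 10 leukocyte markers in the table, 8 averaged under 0.1 FPKM, among them Ptprc (CD45), listed at 0 in all scrambled libraries and at 0.00175 FPKM on average in knockdown. The leukocyte sum of 2.83 to 3.61 FPKM in scrambled and 3.96 to 4.40 FPKM in knockdown libraries was mostly Cd14, which averaged 2.96 and 3.90 FPKM. All 6 endothelial markers in the table averaged under 0.1 FPKM, with a sum of 0.0136 to 0.104 FPKM in scrambled and 0.0416 to 0.0984 FPKM in knockdown libraries. Of 7 epithelial and mesothelial markers, Krt19 (68.4 and 80.8 FPKM) and Msln (22.5 and 15.4 FPKM) were high, with a summed level of 85.9 to 96.3 FPKM in scrambled and 96.1 to 96.8 FPKM in knockdown libraries. Epcam, Wt1 and Upk3b averaged 0.165, 0.0380 and 0.0127 FPKM in scrambled and 0.0377, 0.0355 and 0.0212 FPKM in knockdown. The 3 adipocyte markers in the table summed to 0.732 to 1.07 FPKM in scrambled and 0.533 to 0.960 FPKM in knockdown libraries. The 4 pericyte and smooth muscle markers, mostly Notch3, summed to 3.05 to 3.53 FPKM in scrambled and 0.862 to 1.12 FPKM in knockdown. The part of these differences in the chemokine results was not tested, and in bulk RNA fewer cells of a type and less RNA per cell cannot be told apart.

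Ccl2 was the most abundant of the 9 chemokines in both groups, and Ccl7 the next by the deposited FPKM. In scrambled libraries the order by mean level was Ccl2 (72.2 FPKM), Ccl7 (42.1), Cx3cl1 (33.2), Cxcl12 (18.4), Cxcl10 (17.3), Ccl5 (8.84), Cxcl1 (5.23), Cxcl16 (1.92) and Cxcl5 (0.0397 FPKM). Only the neighbours Cxcl12 and Cxcl10 had overlapping library ranges there. In knockdown libraries Cxcl10 and Cxcl12 no longer overlapped, Ccl5 (3.01 FPKM) stood below Cxcl1 (6.12 FPKM), and Ccl2 and Ccl7 overlapped. The length behind the FPKM, read from its steps, is 7225 bases for Cxcl12 against 3132 for its principal transcript in GENCODE M21, and 1506 against 2699 for Cxcl16. By the principal transcripts Cxcl12 would average 42.5 FPKM in scrambled libraries, beside Ccl7 at 42.5 and above Cx3cl1 at 31.7 FPKM. In knockdown it would average 34.7 FPKM, between Ccl7 at 54.6 and Cx3cl1 at 26.1 FPKM, so its place in the order depends on the length used. The shares that follow are of the deposited FPKM. Ccl2 and Ccl7 together made up 57.4% ± 0.958 of the summed FPKM of the 9 genes in scrambled and 66.0% ± 2.25 in knockdown libraries (SD, n = 3 each). Cxcl10 and Ccl5 together made up 13.1% ± 0.343 and 6.22% ± 1.25. The sum itself was 199.3 ± 14.4 FPKM in scrambled and 180.3 ± 39.99 FPKM in knockdown libraries.

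**Figure D1:**
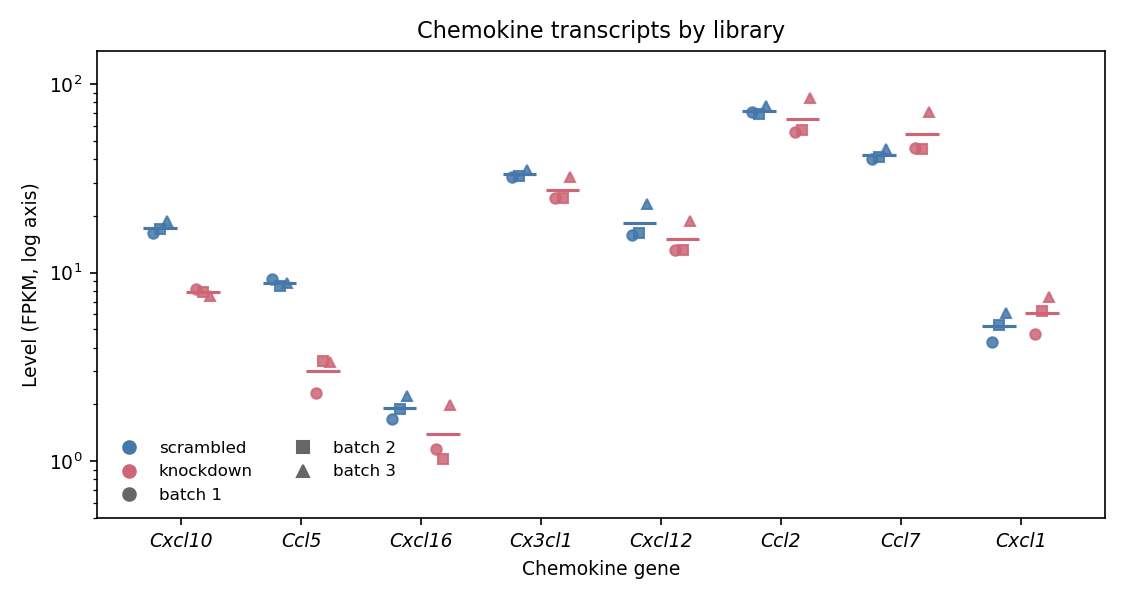
Level of each tested chemokine in each library, in FPKM on a log axis, with blue for scrambled, red for knockdown, a symbol for each batch and a horizontal line for the group mean (n = 3). The groups are apart for Cxcl10, Ccl5 and Cx3cl1, and the batch 3 triangle is the highest knockdown value for 6 of the 8 genes, all but Cxcl10 and Ccl5.

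Of the 8 tested chemokines, 3 were lower in knockdown (Cxcl10, Ccl5 and Cx3cl1), 0 were higher, and 5 did not pass the threshold of 0.05 on the limma adjusted p. Over all 10311 tested genes 51% passed, 31.1% lower and 19.8% higher, so the share of chemokines that passed was not above the background. Values did not overlap between the groups for the same 3 chemokines, against 61.1% of all tested genes. The median log2 fold change was −0.28 over the 8 chemokines and −0.048 over all tested genes. With the batch number as a block in the limma fit, 7 of the 8 passed, 5 lower and 2 higher, where 50.7% of all tested genes passed (30.8% lower and 19.9% higher). Ccl2 was the exception. Among all called genes the share that was higher was 38.9%, and it was 27.6% after rescaling to TPM, 56.7% under median centring and 52.4% under quantile normalization. The same rescalings left 3 of the 8 chemokines called, all lower, except that under median centring Ccl7 was called higher and Cx3cl1 was not called. Of all tested genes 54.1% passed after rescaling to TPM, 51.3% under median centring and 46% under quantile normalization.

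**Figure D2:**
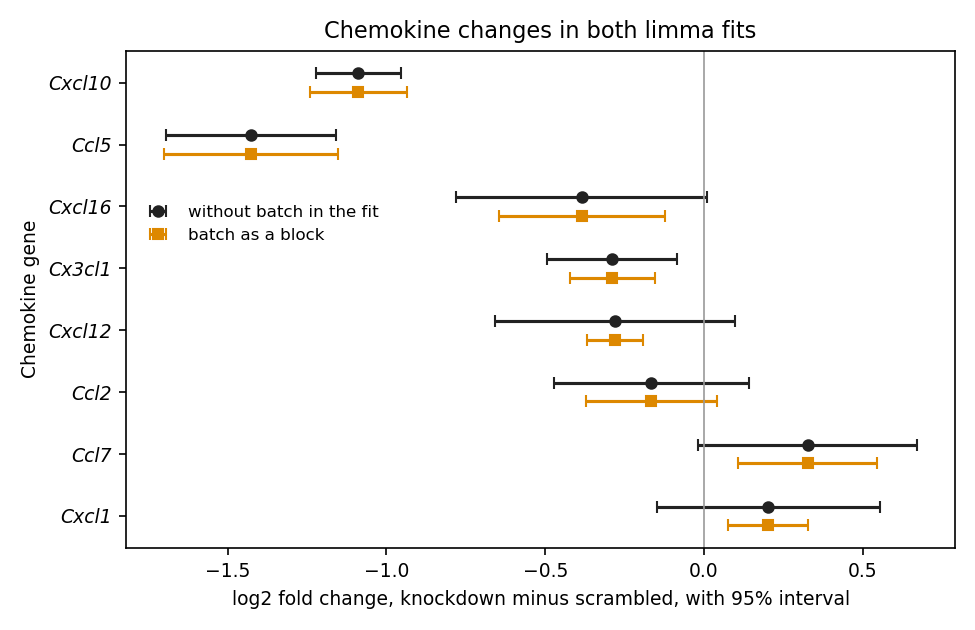
Log2 fold change (knockdown minus scrambled, on the log2(FPKM + 0.5) scale) of each tested chemokine with its 95% interval, from the limma fit without batch (black) and with batch as a block (orange). The estimates are the same in both fits, and for Cxcl16, Cxcl12, Ccl7 and Cxcl1 the interval leaves 0 only with the block.

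Cxcl10 and Ccl5, chemokines that interferon induces, fell by more than 2-fold. Cxcl10 (chromosome 5, 92346638 to 92348889, minus strand; GENCODE M21, GRCm38) encodes IP-10, a ligand of CXCR3 that attracts T cells and NK cells. Scrambled cells held 16.1, 17.1 and 18.7 FPKM of it, and knockdown cells 8.18, 7.91 and 7.52 FPKM, from 283 to 783 fragments. Every knockdown library lay below every scrambled one, and the library that is highest among the scrambled shares its batch with the lowest of the knockdown. The mean went from 17.3 ± 1.31 to 7.87 ± 0.327 FPKM (SD, n = 3 each), 45.4% of the scrambled level. On the log2 scale the difference was −1.09 ± 0.059 (SE; limma adjusted p = 1.49e-05), and within batches 1, 2 and 3 it was −0.94, −1.07 and −1.26.

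Ccl5 (chromosome 11, 83525778 to 83530518, minus strand) encodes RANTES, which attracts T cells and monocytes. The scrambled values were 9.23, 8.49 and 8.81 FPKM, and those of the knockdown were 2.29, 3.41 and 3.34 FPKM. The groups did not overlap, and knockdown library 1 was the lowest. These values rest on 169 to 201 fragments per scrambled and 45 to 72 per knockdown library. The mean went from 8.84 ± 0.372 to 3.01 ± 0.625 FPKM, 34.1% of the scrambled level, with a log2 fold change of −1.43 ± 0.12 (limma adjusted p = 5.35e-05) and of −1.80, −1.201 and −1.28 within the batches. Both genes belong to the 1.09% of tested genes that passed at 2-fold lower or more. Within a library the log2 ratio of Cxcl10 to Ccl5 was 0.97 ± 0.15 in scrambled and 1.41 ± 0.37 in knockdown (SD), higher by 0.44. It was highest in knockdown library 1, where Ccl5 had 45 fragments. The groups did not overlap, and an exact two-sided permutation test gave p = 0.1, the smallest that 3 libraries against 3 allow.

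Ccl2 and Ccl7, neighbours that share a receptor, had a higher ratio of Ccl7 to Ccl2 in every knockdown library than in any scrambled one. In the fit without batch neither level alone passed. Across 17 alternatives Ccl2 passed in 2, and Ccl7 in 4 that include batch as a block. Both genes encode monocyte attractants (MCP-1 and MCP-3) that act on CCR2. Ccl2 lies on chromosome 11 at 82035571 to 82037453 and Ccl7 at 82045712 to 82047525, both on the plus strand, 8.26 kb apart with 0 chemokine genes between them. Ccl2 was at 71.3, 68.9 and 76.5 FPKM with the scrambled treatment and at 55.7, 56.8 and 84.0 FPKM with the knockdown. Knockdown libraries 1 and 2 were below all scrambled libraries and knockdown library 3 was above them. The log2 fold change of Ccl2 was −0.17 ± 0.14, with a 95% interval from −0.47 to 0.14 (limma adjusted p = 0.334). Without knockdown library 3 it was −0.36 (limma adjusted p = 0.000392), and without batch 3 altogether it was −0.31 (limma adjusted p = 0.000406).

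For Ccl7 the scrambled values were 40.2, 40.7 and 45.4 FPKM, and the knockdown values 45.7, 45.3 and 71.3 FPKM. The groups overlapped by a small margin, since scrambled library 3 lay above knockdown library 2. Its mean went from 42.1 ± 2.87 to 54.1 ± 14.9 FPKM, a log2 fold change of 0.33 ± 0.15 (95% interval −0.019 to 0.67, limma adjusted p = 0.103). It was 0.18, 0.15 and 0.64 within batches 1, 2 and 3, so the value in batch 3 was the highest, and without knockdown library 3 it was 0.11 (limma adjusted p = 0.108). With batch as a block Ccl7 passed (limma adjusted p = 0.0237).

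The ratio of Ccl7 to Ccl2 within a library does not depend on the scaling between libraries. It was chosen for display after the values were seen. Scrambled libraries held 0.564, 0.591 and 0.594 FPKM of Ccl7 per FPKM of Ccl2, against 0.820, 0.797 and 0.848 in the knockdown. Although knockdown library 3 had the highest level of both genes, its ratio lay beside those of the other knockdown libraries. The mean ratio went from 0.583 ± 0.0166 to 0.822 ± 0.0256 (SD, n = 3 each), 1.41 times as high by the geometric mean, with log2 differences of 0.54, 0.43 and 0.52 within batches 1, 2 and 3. An exact two-sided permutation test of the log2 ratio gave p = 0.1, the smallest that 3 libraries against 3 allow, and 0.127 after adjustment over the 28 pairs of tested chemokines. Of those 28 pairs, 22 had ratios that did not overlap between the groups. They include all 13 pairs with Cxcl10 or Ccl5, the genes that fell most, and 9 of the other 15 pairs. The share over pairs of other genes was not computed, and 61.1% of all tested genes did not overlap singly. These counts are therefore not read as particular to the chemokines. For Cxcl12 and Cx3cl1, the pair whose ratio moved least, the log2 difference between groups was 0.0046.

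**Figure D3:**
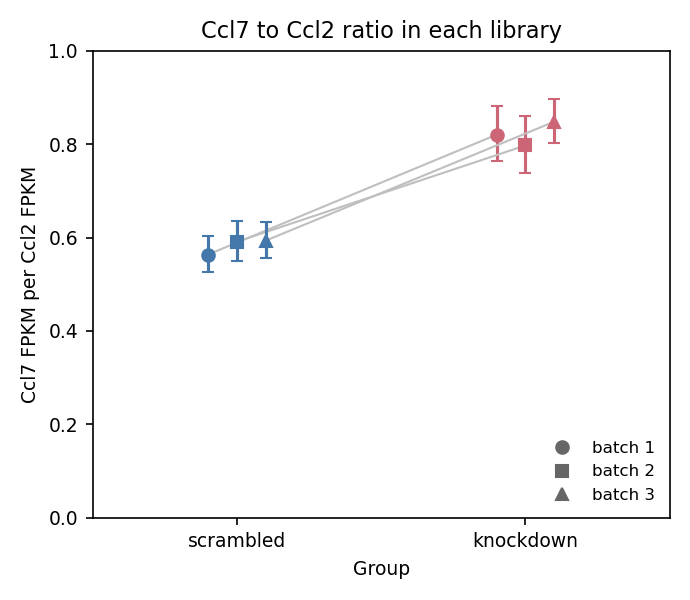
Ccl7 FPKM per Ccl2 FPKM in each library, with 95% intervals that cover counting error only and grey lines joining libraries of 1 batch. Scrambled libraries lie between 0.564 and 0.594 and knockdown libraries between 0.797 and 0.848.

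The neutrophil attractants were low. Cxcl1 (chromosome 5, 90891241 to 90893115, plus strand) encodes KC, a ligand of CXCR2. It was found at 4.30, 5.26 and 6.12 FPKM in the scrambled group and at 4.74, 6.22 and 7.41 FPKM in the knockdown group. The groups overlapped, but within each batch the knockdown library was the higher one, by 0.13, 0.22 and 0.26 on the log2 scale. The log2 fold change was 0.20 ± 0.15 (95% interval −0.15 to 0.55, limma adjusted p = 0.302). It was 0.32 under quantile normalization, and 0.064 without knockdown library 3, 0.081 without scrambled library 1, 0.31 without scrambled library 3 and 0.36 without knockdown library 1, none of which passed. With batch as a block Cxcl1 passed (SE 0.053, limma adjusted p = 0.0181). Cxcl5 (chromosome 5, 90759360 to 90761624, plus strand), another CXCR2 ligand, had 7, 0 and 1 fragments in the scrambled libraries and 1 fragment in each knockdown library. A count of 0 allows up to 3 fragments, here 0.0443 to 0.0557 FPKM by library, so scrambled library 1, at 0.103 FPKM, was the only one above that level, and no fold is given.

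Cxcl12, the ligand of CXCR4 that retains haematopoietic and other progenitor cells, was highest in batch 3 of either group, and its difference between groups passed only with batch as a block or without knockdown library 3 or batch 3. Cxcl12 (SDF-1; chromosome 6, 117168535 to 117181367, plus strand) reached 15.7, 16.3 and 23.2 FPKM in the scrambled group, and 13.2, 13.1 and 18.8 FPKM in the knockdown. The groups overlapped, since scrambled libraries 1 and 2 lay above knockdown libraries 1 and 2 but below knockdown library 3. Knockdown minus scrambled, on the log2 scale, came to −0.25, −0.30 and −0.30 in batches 1, 2 and 3. The log2 fold change was −0.28 ± 0.17 without batch in the fit (95% interval −0.66 to 0.098, limma adjusted p = 0.188) and −0.28 ± 0.037 with batch as a block (95% interval −0.37 to −0.19, limma adjusted p = 0.0012). Without knockdown library 3 it was −0.45 (limma adjusted p = 0.0276), and without scrambled library 3 it was −0.11 (limma adjusted p = 0.567).

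The chemokines made as membrane proteins, Cx3cl1 and Cxcl16, were lower in knockdown on average, and Cx3cl1 passed in both fits. ADAM10 and ADAM17 release them from the cell surface. Cx3cl1 (fractalkine, the ligand of CX3CR1; chromosome 8, 94772009 to 94782427, plus strand) was measured at 32.2, 32.4 and 34.8 FPKM in the scrambled and at 24.9, 24.8 and 32.1 FPKM in the knockdown group. The groups did not overlap, but knockdown library 3 was close to scrambled library 1. Its log2 change was −0.29 ± 0.090 (limma adjusted p = 0.0256; 0.00586 with batch as a block) and −0.37, −0.38 and −0.12 within the batches. This call was lost without scrambled library 2 (limma adjusted p = 0.0517), scrambled library 3 (0.0826), knockdown library 1 (0.0854) or knockdown library 2 (0.0920), and also under median centring (0.0541), without the limma trend (0.0514) and without the filter (0.102).

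Cxcl16 (the ligand of CXCR6; chromosome 11, 70453983 to 70459984, minus strand) was the least abundant tested member. Its scrambled values were 1.67, 1.88 and 2.22 FPKM and its knockdown values 1.16, 1.03 and 1.98 FPKM, from 50 to 126 fragments. Knockdown library 3 lay above scrambled libraries 1 and 2, and the other knockdown libraries lay below all scrambled ones. Its log2 fold change was −0.38 ± 0.17 (95% interval −0.78 to 0.0099, limma adjusted p = 0.0936), and it passed with batch as a block (limma adjusted p = 0.0248). Without knockdown library 3 the value was −0.60 (limma adjusted p = 0.00299), without knockdown library 2 it was −0.25 (limma adjusted p = 0.282), and under quantile normalization it was −0.17 (limma adjusted p = 0.417).

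Knockdown library 3 stood above the other knockdown libraries for most of these genes. Its level was at least 1.2 times the mean of knockdown libraries 1 and 2 for 6 of the 8 tested chemokines, against 6.09% of all tested genes. The ratio was 1.81 for Cxcl16, 1.57 for Ccl7, 1.49 for Ccl2, 1.43 for Cxcl12, 1.35 for Cxcl1 and 1.29 for Cx3cl1, but 1.17 for Ccl5 and 0.936 for Cxcl10. Among scrambled libraries, library 3 reached 1.2 times the others for 3 of the 8 (Cxcl12 at 1.45, Cxcl1 at 1.28 and Cxcl16 at 1.25), against 3.38% of all tested genes. Over all tested genes the median ratio was 1.01 in knockdown and 1.00 in scrambled libraries. The look at library 3 was added after the values were seen, and the cut of 1.2 was not planned. These counts and shares therefore describe the values that led to it and are no test. Left out singly, knockdown library 3 raised the number of chemokines that passed from 3 to 6 of 8, all lower (Cxcl10, Ccl5, Ccl2, Cxcl12, Cxcl16 and Cx3cl1), where 51.2% of all tested genes passed in the same fit, 32% lower and 19.2% higher. Without both batch 3 libraries 7 passed, these 6 lower and Ccl7 higher, in a fit of 2 libraries against 2 in which 46% of all tested genes passed, 28.5% lower and 17.5% higher.

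**Figure D4:**
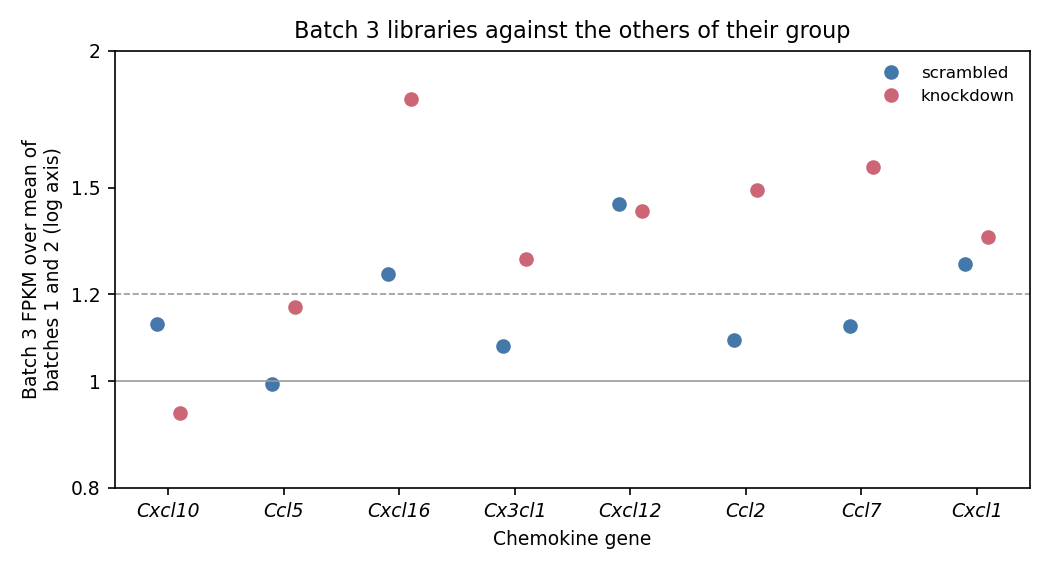
Level of each tested chemokine in the batch 3 library of its group, divided by the mean of the batch 1 and batch 2 libraries, on a log axis, with blue for scrambled and red for knockdown. The dashed line marks 1.2 times, which 6 chemokines exceed in knockdown and 3 in scrambled libraries.

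Few of the other chemokine ligands were expressed. Of 28 listed ligands 14 have a row, 8 of them averaged under 0.1 FPKM, and 3 were tested. Of the 3 tested, 1 was lower and 1 higher, where 31.1% of all tested genes were lower and 19.8% higher. Ccl9, a CCR1 ligand, was at 1.27, 1.08 and 1.54 FPKM in the scrambled and at 0.532, 0.562 and 0.885 FPKM in the knockdown group, without overlap (log2 fold change −0.63, limma adjusted p = 0.0061, lost under quantile normalization at 0.102). Ccl9 reached 1 FPKM in the scrambled libraries only. It thus passed the filter through the group where it is higher, which limits what its call can show. Ccl25, the ligand of CCR9, went from 1.34 ± 0.0663 to 1.78 ± 0.232 FPKM (0.31, limma adjusted p = 0.0231), a call lost without scrambled library 1 (0.0746), scrambled library 2 (0.0587), knockdown library 1 (0.0630) or knockdown library 3 (0.0693) and without the filter (0.0676). Ccl27a stood at −0.26 (limma adjusted p = 0.135). The receptors of the members were near 0: of 11 signalling receptors 6 have a row, all averaging under 0.1 FPKM, with a summed level of 0.0207 to 0.0565 FPKM in scrambled and 0.0488 to 0.158 FPKM in knockdown libraries. Cxcr4, the receptor of CXCL12, was listed at 0 in every scrambled library and averaged 0.0249 FPKM in knockdown. That mean rests on 7, 0 and 1 fragments in knockdown libraries 1, 2 and 3. Ackr3, a scavenging receptor that takes up CXCL12, averaged 0.401 and 0.508 FPKM and was below the filter.

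Genes that shed, cleave or hold chemokines were next. Of 13 tested genes of processing and retention 7 were lower and 0 higher, where 31.1% of all tested genes were lower and 19.8% higher (median −0.11, against −0.048 over all tested genes). Adam10 lay at 33.3, 34.4 and 34.6 FPKM in the scrambled and at 30.4, 31.0 and 31.0 FPKM in the knockdown group, without overlap (log2 fold change −0.14, limma adjusted p = 0.00521). Adam17 (−0.19), the heparan sulfate proteoglycan Sdc1 (−0.13) and the gelatinase Mmp2 (−0.14), which can cleave CCL7 and CXCL12, were lower too. Under median centring 1 gene of the list was lower and 1 higher, where 22.2% of all tested genes were lower and 29.1% higher. Adam10, Sdc1 and Mmp2 then lost their call (limma adjusted p = 0.0716, 0.127 and 0.0922).

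Of 15 tested interferon receptors, kinases and factors, 9 were lower and 0 higher (median −0.22), where 31.1% of all tested genes were lower and 19.8% higher. Stat2, part of the interferon-activated ISGF3 complex, lay at 4.19, 4.71 and 4.96 FPKM in the scrambled and at 2.47, 2.23 and 2.26 FPKM in the knockdown group (−0.86, limma adjusted p = 6.34e-05). Irf1, a transcription factor of interferon responses (−0.75), the feedback inhibitor Socs3 (−0.41) and the kinase Tyk2 (−0.53) were also lower. Under quantile normalization 7 were lower and 1 higher, where 21.9% of all tested genes were lower and 24.1% higher. After rescaling to TPM 12 were lower and 0 higher, where 39.1% of all tested genes were lower and 14.9% higher. Of 21 tested NF-kappaB genes, 2 were higher and 6 lower (median −0.066), which is near the share of all tested genes for those lower. Both that were higher are inhibitors of the pathway that it induces itself: Tnfaip3 (A20) went from 3.61 ± 0.0496 to 5.53 ± 0.521 FPKM (0.55, limma adjusted p = 0.000324) and Nfkbia from 29.7 ± 0.352 to 35.1 ± 3.29 FPKM (0.24, limma adjusted p = 0.0103). The inhibitor Nfkbie (−0.47) and the TNF receptor Tnfrsf1a (−0.21) were lower. This split turned with the scaling, to 6 higher and 4 lower under median centring and 7 higher and 3 lower under quantile normalization. Over all tested genes 29.1% were higher and 22.2% lower under median centring, and 24.1% and 21.9% under quantile normalization. Of 3 tested cytokines, Csf1, the macrophage growth factor, was higher (0.49), Lif was lower (−0.40, lost under quantile normalization with limma adjusted p = 0.135) and Il34 stood at −0.015 (limma adjusted p = 0.934). Il6 averaged 0.0454 FPKM in scrambled and 0.0475 FPKM in knockdown libraries, and Tnf was listed at 0 in all but 1 library.

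**Figure D5:**
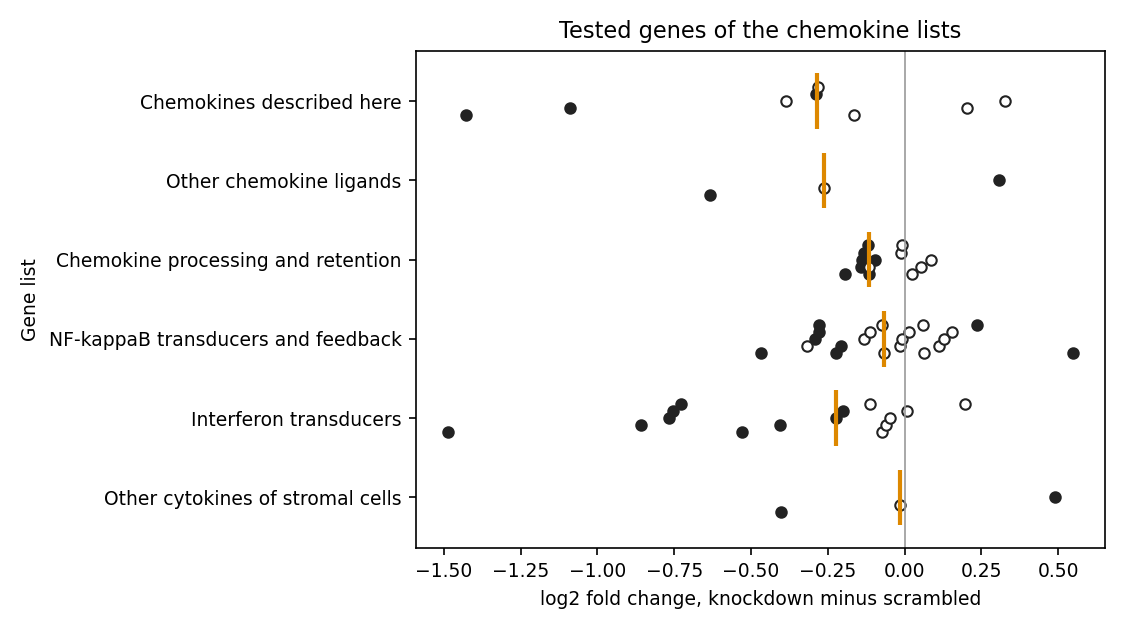
Log2 fold change (knockdown minus scrambled) of each tested gene of the chemokine lists. Filled circles passed the limma threshold, open circles did not, and the orange bar is the median of the list, from −0.28 for the chemokines described here to −0.015 for the other cytokines.

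The tested genes whose log2 levels followed Cxcl10 most closely over the 6 libraries were Cdc42bpg (r = 0.999), Ccdc186 (0.999) and Rnf213 (0.998). For Ccl5 they were Ccdc136 (0.999), Wrn (0.998) and Ldlrad4 (0.998). Ccl2 was most like Coq6 (0.991), Rfc3 (0.988) and Car13 (0.981), and Ccl7 was most like Shc2 (0.994), Ppa2 (0.987) and Angptl4 (0.986). Cxcl1 was most like Atp6v1g2 (0.997), Zfp691 (0.994) and Elp6 (0.988), and Cxcl12 most like Rhod (0.992), Ndst2 (0.989) and Wasl (0.985). The genes nearest to Cxcl16 were Slc35b2 (0.994), Chst12 (0.991) and Scarf2 (0.987), and those nearest to Cx3cl1 were Myl12b (0.999), Gstm1 (0.994) and Ogn (0.994). These Pearson correlations describe 6 libraries that share their group difference and batches, taken as the highest among the tested genes.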

How the data were processed

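RNA was captured on mRNA beads, fragmented by heat and made into cDNA libraries, per the labels' protocols. The authors deposited 1 table of FPKM values, with GRCm38, mm10 and GRCm39 listed as builds, roles unstated, per the submitters' processing notes. The aligner, counter and strand setting were not given in the sources used here. Whole fragments explained all 19877 genes within 0.002 of a whole number, the smallest whole numbers being taken. Depth was 32.2 to 40.6 M fragments, and intervals from fragments cover counting error only.

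Values were changed to log2(FPKM + 0.5) and compared with limma 3.58.1 in R 4.3.3 (moderated variance with a trend, two-sided, Benjamini-Hochberg over 10311 genes, threshold 0.05), which was tested on simulated data. A fold change on this scale understates that of low genes. Libraries of 1 number share a batch, per the labels, so the number pairs them. Deviations from the group means of same-numbered libraries correlated at 0.086, 0.012 and 0.19 for batches 1, 2 and 3. Between scrambled and knockdown libraries of different numbers the correlations ran from −0.17 to 0.11. The fit without the block is the main one, and no 2 libraries of a group agreed within sampling noise (chi-square per gene 3.16 to 12.5). Alternatives were the block, another pseudocount, filter or scaling, limma without trend, limma-voom on recovered fragments, and libraries left out.

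The genes, lists and tests were chosen with earlier results of these data known. Named are the 10 chemokines, Ifit1, receptors and markers with their levels, and up to 4 tested genes of smallest p from each list. Genes most like a member were the 3 of highest Pearson r, without Gm and Rik models. Positions are from GENCODE M21 and promoter sequences from RefSeq.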

Additional observations from a re-analysis of the deposited data

How the results depend on the processing

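Across all alternatives Cxcl10 and Ccl5 stayed called and lower, from −1.16 to −1.002 and from −1.57 to −1.27 on the log2 scale. In place of 3 chemokines called (0 higher, 3 lower), the replicate block gave 7 (2 higher, 5 lower; 50.7% of all tested genes), with limma adjusted p = 0.0237 for Ccl7 (0.33), 0.0181 for Cxcl1 (0.20), 0.0012 for Cxcl12 (−0.28) and 0.0248 for Cxcl16 (−0.38). The block changed no other call of a chemokine. It called 1 gene of processing and retention higher where the main fit called 0. Leaving out 1 library gave 2 to 6 calls, 2 to 6 of them lower and 0 higher, where 42% to 51.2% of all tested genes passed (25.5% to 32% lower). The log2 fold change then ran from −0.36 to −0.063 for Ccl2, from −0.45 to −0.11 for Cxcl12, from −0.60 to −0.25 for Cxcl16, from −0.41 to −0.23 for Cx3cl1, from 0.11 to 0.44 for Ccl7 and from 0.064 to 0.36 for Cxcl1. Without batch 3, an alternative added after seeing the data, 7 passed (1 higher, 6 lower), where 46% of all tested genes did, with Ccl2 at −0.31, Ccl7 at 0.17, Cxcl12 at −0.27 and Cxcl16 at −0.51, while Ccl25 did not pass (limma adjusted p = 0.0796). Ccl7 passed under median centring (0.39, so 1 higher and 2 lower) and with limma-voom on recovered fragments (0.35, so 1 higher). Cx3cl1 did not pass under median centring (−0.22), without the limma trend (−0.29) and without the filter (−0.29). Under quantile normalization Cxcl16 stood at −0.17 and Cxcl1 at 0.32, and under median centring Ccl2 stood at −0.099, none of them passing. Cxcl5 turned from −0.058 to 0.17 under median centring, and ran from −0.11 to 0.025 leaving out 1 library (0.025 without scrambled library 1). Il34 turned from −0.015 to 0.051 under median centring, 0.30 under quantile normalization and 0.067 without batch 3, and ran from −0.094 to 0.11 leaving out 1 library, above 0 without scrambled library 3 (0.11) or knockdown library 1 (0.090). The log2 ratio of Ccl7 to Ccl2 (0.50) ran from 0.47 to 0.52. With a mean FPKM of at least 5, fewer genes were tested, and 2042 were called lower in place of 3209, with 4 interferon transducers lower in place of 9, and 1 NF-kappaB gene higher and 4 lower in place of 2 and 6. In that fit 27.8% of all tested genes were lower and 25.2% higher. Leaving out 1 library lowered the count of processing and retention genes from 7 to 4 for scrambled libraries 1 and 3 and knockdown library 2, and moved NF-kappaB genes between 2 and 4 higher and between 4 and 7 lower. After rescaling to TPM 9 NF-kappaB genes were lower, where 39.1% of all tested genes were lower. The cause of these shifts was not tested. Cxcl16 and Cxcl5 had too low a mean for the filter at 5. At these depths Cxcl5 and most receptors rest on a few fragments per library, and differences in them were not detectable.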

Other observations

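The abundant chemokines lay beside others that were near 0 in these cells. On chromosome 11, Ccl11 and Ccl8 stand downstream of Ccl2 and Ccl7 in the same cluster, but Ccl11, an eosinophil attractant, averaged 0 FPKM in scrambled and 0.00956 FPKM in knockdown libraries, and Ccl8 averaged 0.0172 and 0.0177 FPKM. On chromosome 5, Cxcl2, the neighbour of Cxcl1 and also a CXCR2 ligand, averaged 0.0494 and 0.00834 FPKM. It had 0, 6 and 0 fragments in the scrambled libraries and 1, 0 and 0 in the knockdown libraries. Cxcl9, which like Cxcl10 binds CXCR3 and is induced by interferon-gamma, averaged 0.0347 FPKM in scrambled and 0.00877 FPKM in knockdown libraries. By batch it was at 0.0589, 0 and 0.0453 FPKM with the scrambled treatment and at 0.00933, 0 and 0.0170 FPKM with the knockdown. None of these 4 genes was abundant enough to test.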
